A study of Homo sapiens with 12 samples.

Results

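SH3KBP1, SLC43A3 and CCDC80 are 3 genes of PEO1 cells whose mRNA response to fulvestrant differed between control-vector cells and cells with p53 knocked down. They were selected on a small p for the interaction of line and treatment, that is for the difference between the fulvestrant change in one line and that in the other, so this difference describes them and is not a finding. They are 3 of the 57773 entries of the count table, and all 3 were among the 15715 genes with enough counts to test. SH3KBP1 (ENST00000379697) encodes the adaptor protein CIN85, SLC43A3 (ENST00000352187) a membrane carrier, and CCDC80 (ENST00000206423) a secreted protein of the extracellular matrix. Each of the 3 is a single entry of the table, which sums 10, 25 and 8 transcripts in that order, so the isoforms cannot be separated.

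PEO1 is an established human ovarian cancer cell line, and fulvestrant is an antagonist of the estrogen receptor that leads to the receptor's degradation. The study asked how mutant p53 acts on estrogen receptor alpha and on resistance to endocrine therapy. RNA sequencing covered 12 libraries in 4 groups of 3. One line carried the pLKO.1 vector alone and the other a short hairpin RNA against p53, called shp53, and both grew with 10% serum and 2 μg/mL puromycin. Each line was sampled untreated at 0 h and after 48 h with 10 μM fulvestrant. The treatment protocol pairs fulvestrant with 100 pM estradiol (E2), and does not say whether the untreated cells had it. A difference between the treated and untreated libraries therefore cannot be told apart from 48 h in culture or from estradiol. The labels do not say how many hairpins or clones the shp53 line stands for, nor whether replicates came from separate cultures, and a p-value here measures only the spread between these libraries, which may be technical.

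The libraries held 21581887 to 28481541 counts each, and levels are given as CPM (counts-per-million after scaling). All 9 carcinoma and epithelial markers were present in these cells. Markers of fibroblasts, which make much of the matrix in tissue, summed to 1.74 to 7.35 CPM, with COL3A1 and LUM at 0 counts in every library and COL1A1 the only one of 7 at 1 CPM or more. Markers of leukocytes summed to 57.3 to 79.5 CPM, most of it CD68 (53.7 to 70.1 CPM in group means). Those of endothelium summed to 5.01 to 9.96 CPM and those of mesothelium to 22.6 to 51.4 CPM. The libraries varied along a trend with transcript GC content. In each group the 1 library farthest along it was taken by rule, which does not mean that it stood apart. In untreated shp53 cells, for example, the slopes were −0.110 (replicate 1, taken) and 0.0905 (replicate 3) in log2 per 10 points of GC content. Results are given without those 4 GC-shifted libraries where that matters.

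As background, CIN85 binds the ubiquitin ligase CBL and endophilins and takes part in the endocytosis and degradation of activated receptor tyrosine kinases such as the EGF receptor. The SLC43A3 protein carries purine nucleobases across the membrane and belongs to a family whose other members carry large neutral amino acids. CCDC80 is secreted, binds matrix components and shares a domain with the sushi repeat proteins SRPX and SRPX2. Estrogen receptor alpha is a ligand-activated transcription factor, expressed in many ovarian carcinomas, and its antagonists lower the mRNA of genes that estradiol induces.

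SH3KBP1 was high in a single group, the untreated shp53 cells. Its level was 67.7, 65.6 and 67.0 CPM in the 3 untreated pLKO.1 libraries and 97.8, 100.4 and 93.2 CPM in the 3 untreated shp53 libraries. With fulvestrant it was 54.6, 55.8 and 56.1 CPM in pLKO.1 cells and 52.2, 54.2 and 53.8 CPM in shp53 cells. No 2 of the 4 groups overlapped, but the 2 treated groups lay only 0.396 CPM apart at their nearest libraries, against 25.5 CPM for the 2 untreated groups. The lines thus stood far apart before treatment and close together after it. How many of all tested genes have groups that separate was not counted, here or for the other genes below.

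In group means, SH3KBP1 was at 66.8 ± 1.04 CPM untreated and 55.5 ± 0.784 CPM treated in pLKO.1 cells, and at 97.1 ± 3.62 and 53.4 ± 1.08 CPM in shp53 cells (mean ± SD, n = 3 each). The treated level was 83.1% of the untreated one in pLKO.1 cells and 55.0% in shp53 cells. The corresponding log2 fold changes were −0.27 (SE 0.04) and −0.86 (SE 0.04), and their difference, shp53 minus pLKO.1, was −0.60 (SE 0.06). Read the other way, shp53 cells held 145% of the pLKO.1 level untreated and 96.2% with fulvestrant, log2 fold changes of 0.54 (SE 0.04) and −0.06 (SE 0.04). The gap between the lines was 30.3 CPM before treatment and −2.11 CPM after it.

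**Figure D1:**
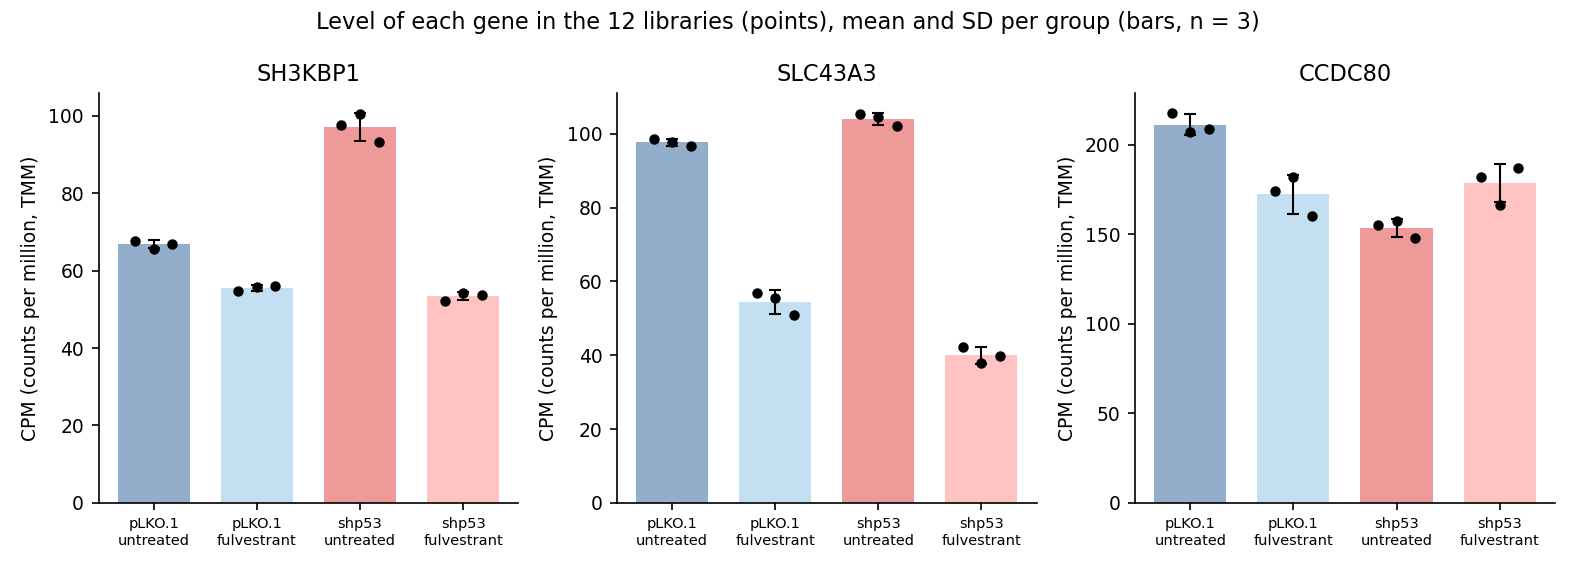
Level of SH3KBP1, SLC43A3 and CCDC80 in counts-per-million (vertical axes, from 0) in the 4 groups. Points are the 12 libraries, and bars and whiskers are the mean and SD of 3. SH3KBP1 stands out in untreated shp53 cells (97.1 CPM), SLC43A3 is lowest in treated shp53 cells (40.0 CPM), and CCDC80 is highest in untreated pLKO.1 cells (211 CPM).

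SLC43A3 had the opposite arrangement, with lines that were close untreated and apart under fulvestrant. Untreated, it was at 98.7, 97.8 and 96.8 CPM in pLKO.1 cells and at 105, 105 and 102 CPM in shp53 cells. Treated, it was at 56.8, 55.6 and 50.9 CPM in pLKO.1 cells and at 42.3, 37.8 and 39.8 CPM in shp53 cells. The 4 groups did not overlap, with a gap of 3.54 CPM between the untreated groups and 8.57 CPM between the treated ones. Every treated library was more than 40 CPM below every untreated one.

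The SLC43A3 group means were 97.8 ± 0.950 and 54.4 ± 3.14 CPM in untreated and treated pLKO.1 cells, and 104 ± 1.59 and 40.0 ± 2.26 CPM in untreated and treated shp53 cells (mean ± SD, n = 3 each). The treated level was 55.7% of the untreated one in pLKO.1 cells and 38.4% in shp53 cells, log2 fold changes of −0.85 (SE 0.06) and −1.38 (SE 0.06) and a difference of −0.54 (SE 0.08). Between the lines, shp53 cells held 106% of the pLKO.1 level untreated and 73.4% with fulvestrant, log2 fold changes of 0.09 (SE 0.06) and −0.45 (SE 0.06). Treated cells of both lines thus held less mRNA of this carrier, and the shp53 cells the least.

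CCDC80 had fold changes of opposite sign in the 2 lines. In pLKO.1 cells it was at 218, 207 and 209 CPM untreated and at 174, 182 and 160 CPM with fulvestrant. In shp53 cells it was at 155, 157 and 148 CPM untreated and at 182, 167 and 187 CPM with fulvestrant. The treated groups overlapped, all other pairs of groups were separate, and the treated libraries of both lines lay between the untreated libraries of the 2 lines.

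CCDC80 averaged 211 ± 5.76 and 172 ± 11.0 CPM in untreated and treated pLKO.1 cells, and 153 ± 5.04 and 179 ± 10.7 CPM in untreated and treated shp53 cells (mean ± SD, n = 3 each). The treated level was 81.6% of the untreated one in pLKO.1 cells and 116% in shp53 cells, log2 fold changes of −0.29 (SE 0.06) and 0.22 (SE 0.06). Their difference was 0.51 (SE 0.09). Before treatment shp53 cells held 72.7% of the pLKO.1 level (log2 fold change −0.46, SE 0.06) and under fulvestrant 104% (0.05, SE 0.06). In both treated groups the lowest CCDC80 library was the one farthest along the GC trend, pLKO.1 replicate 3 and shp53 replicate 2. These libraries were also the lowest treated ones of their lines for SLC43A3 (50.9 and 37.8 CPM) and the highest for SH3KBP1 (56.1 and 54.2 CPM). The part of this trend in the results was not tested.

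**Figure D2:**
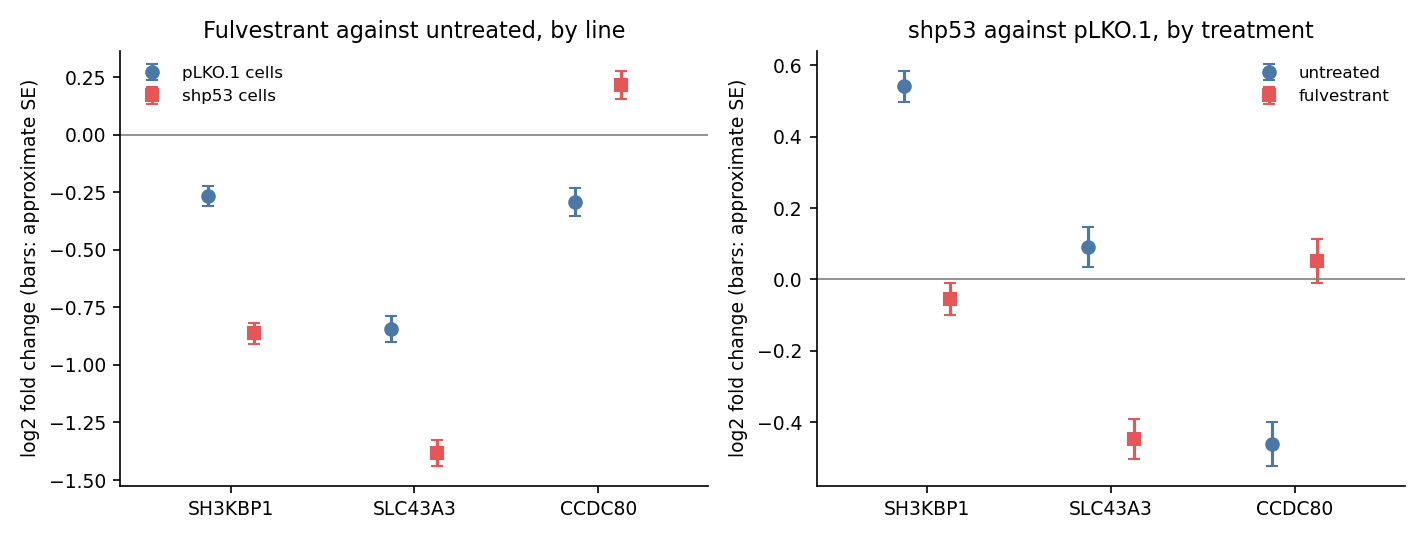
Log2 fold changes (vertical axes) of the 3 genes with their approximate SE (whiskers): left, fulvestrant against untreated in pLKO.1 cells (circles) and shp53 cells (squares); right, shp53 against pLKO.1 in untreated (circles) and treated cells (squares). On the right, SH3KBP1 and CCDC80 lie away from 0 untreated (0.54 and −0.46) and near 0 with fulvestrant (−0.06 and 0.05), while SLC43A3 is near 0 untreated (0.09) and at −0.45 with fulvestrant.

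SH3KBP1 and SLC43A3 shared one order of the 4 levels and CCDC80 had another. For SH3KBP1 it ran from untreated shp53 down through untreated pLKO.1 and treated pLKO.1 to treated shp53 cells, and the last 2 means, 53.4 and 55.5 CPM, lay close together, with SDs of 1.08 and 0.784 CPM. For SLC43A3 it ran from untreated shp53 through untreated pLKO.1 and treated pLKO.1 to treated shp53 cells, with each step larger than the SDs beside it. For CCDC80 it ran from untreated pLKO.1 through treated shp53 and treated pLKO.1 to untreated shp53 cells, and the 2 treated means, 6.29 CPM apart, did not differ beyond their SDs of 10.7 and 11.0 CPM. Because these are bulk libraries, fewer cells that express a gene and less of its RNA per cell cannot be told apart.

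The values that chose the genes place them near the top of the order by interaction p. Of 15715 genes SH3KBP1 was at rank 1 by edgeR (adjusted p = 0.0265). SLC43A3 was at rank 5 by edgeR (adjusted p = 0.0932) and CCDC80 at rank 14 (adjusted p = 0.109). Only 4 genes, 0.0255% of those tested, passed an adjusted p of 0.05 for this difference by edgeR's quasi-likelihood test, 1171 had an unadjusted p under 0.05, and DESeq2 called 45. SH3KBP1 passed, SLC43A3 and CCDC80 did not, and nothing is read from that count, because the genes were picked on it. The edgeR count was 0 without any one of 10 of the libraries (884 to 1271 genes at an unadjusted p under 0.05), 1 without untreated shp53 replicate 3 and 7 without treated pLKO.1 replicate 3. It was 604 after a correction for GC content, and 62 when the 4 libraries farthest along the GC trend were left out. After that correction all 3 genes were among the 604 (edgeR adjusted p = 0.000317 for SH3KBP1, 0.00133 for SLC43A3 and 0.0474 for CCDC80). Nothing is read from this either, because they were picked on the same contrast.

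Their neighbours in that order were CYP24A1, GREB1, GINS4, THBS1 and SPTLC3. CYP24A1, the vitamin D 24-hydroxylase gene, came next after SH3KBP1, with a mean of 50.4 CPM untreated and 56.4 CPM treated in pLKO.1 cells and of 40.7 and 79.2 CPM in shp53 cells. GREB1 (ENST00000234142), an estrogen-induced gene, stood just before SLC43A3 with a difference of −0.75 (SE 0.10), and shared with SH3KBP1 higher untreated levels in shp53 cells (66.2 against 41.2 CPM) and near-equal treated levels (5.63 against 5.89 CPM). GINS4, a gene of the replication helicase complex, followed SLC43A3 with a difference of −0.57 (SE 0.09). THBS1, the matrix glycoprotein gene thrombospondin-1, and SPTLC3, a sphingolipid synthesis gene, lay on either side of CCDC80 with differences of −0.36 (SE 0.06) and 0.75 (SE 0.13).

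Genes with a fulvestrant effect set the scale for these differences. Averaged over both lines, 1031 genes at a mean log2 CPM of 3 or more fell with fulvestrant by 0.5 or more. Their median difference, shp53 minus pLKO.1, was −0.25, with −0.60 and −0.01 as the 5th and 95th percentiles. SH3KBP1 was at percentile 5.24 and SLC43A3 at 7.18 of that set. Among the 605 genes that rose by 0.5 or more, the median difference was 0.20. Over all 10179 genes of that expression level the median was −0.004 and CCDC80 was at percentile 99.7. These are descriptions of where genes picked for their difference lie.

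The opposite signs of CCDC80 are part of the difference it was picked for, and that choice favours them. The counts that follow describe it and are no test. In pLKO.1 cells 27.8% of the tested genes passed the threshold for the fulvestrant response, and in shp53 cells 40.9%. Of the 3983 genes that passed in both lines, 3981 went the same way and 2 (0.0502%) went opposite ways. Those were CCDC80 and DGUOK-AS1, an antisense RNA whose reads could belong to its partner gene, named here because the count is small. The count of opposite genes was 6 without treated pLKO.1 replicate 3 and 0 without untreated shp53 replicate 3. It was 1 without untreated pLKO.1 replicate 3, treated pLKO.1 replicate 2, untreated shp53 replicate 2 or any one treated shp53 library, and CCDC80 was that gene each time. CCDC80 left this set after the GC correction, which gave 11 opposite genes and where its response in shp53 cells was 0.14 (SE 0.08, edgeR adjusted p = 0.156), and without untreated shp53 replicate 3 (adjusted p = 0.0606). With the 4 GC-shifted libraries left out it was 1 of 7 such genes.

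**Figure D3:**
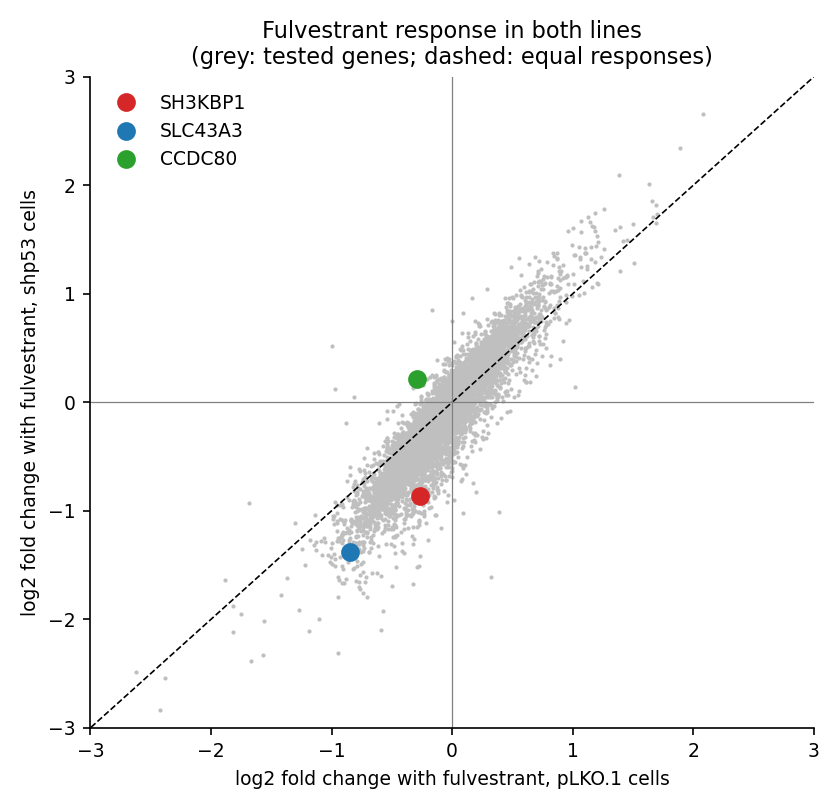
Fulvestrant log2 fold change in pLKO.1 cells (horizontal) and in shp53 cells (vertical) of 10179 tested genes whose mean log2 CPM was 3 or more (grey), with the 3 genes coloured. The dashed line marks equal responses, and 4 genes lie outside the axes. SH3KBP1 (−0.27, −0.86) and SLC43A3 (−0.85, −1.38) lie below the line and CCDC80 (−0.29, 0.22) lies above it, in the quadrant of opposite signs.

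A pair of averages was estimated separately from the difference that chose the genes, by the balance of the design: the fulvestrant effect averaged over both lines, and the knockdown effect averaged over both treatments. Their p-values use the same residual spread as the interaction p, and a choice on a small interaction p favours genes of small spread. These p-values are therefore not independent of the choice and may be too small. For the fulvestrant average, 24.1% of tested genes were lower and 25% higher. SLC43A3 fell by 1.11 on the log2 scale (SE 0.04, edgeR adjusted p = 1.35e-08), in 6 of 6 treated libraries below every untreated one. SH3KBP1 fell by 0.56 (SE 0.03, edgeR adjusted p = 2.08e-07), also with 6 of 6 treated libraries below every untreated one. The share of all tested genes that separate in this way was not counted, and a choice of genes with small spread favours it. CCDC80 had an average of −0.04 (SE 0.04, adjusted p = 0.495), a mean of 2 fold changes of opposite sign.

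For the knockdown average, 3.14% of tested genes were lower and 5.03% higher, and all 3 genes passed the threshold. SH3KBP1 rose by 0.24 (SE 0.03, edgeR adjusted p = 0.000891), a value made up of a large difference in untreated cells and almost none in treated ones. CCDC80 fell by 0.20 (SE 0.04, adjusted p = 0.0146), again from the untreated cells. SLC43A3 fell by 0.18 (SE 0.04, adjusted p = 0.019), from the treated cells. The SLC43A3 call was lost without untreated pLKO.1 replicate 2 (adjusted p = 0.0526) or untreated shp53 replicate 2 (adjusted p = 0.0512), and the other 2 calls held without each library in turn.

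The sign of each gene's difference was the same under all 20 other settings tried, which the choice of the genes does not make independent evidence. SH3KBP1 ranged from −0.64 to −0.56, SLC43A3 from −0.57 to −0.50 and CCDC80 from 0.46 to 0.54. The transcripts had a GC content of 48.3% for SH3KBP1, 55.4% for SLC43A3 and 46.1% for CCDC80, against a median of 49.6% for tested genes. Across tested genes the difference of responses had a Spearman rho of −0.374 with GC content, a description over genes that share the same 12 libraries. After the GC correction the 3 differences were −0.64 (SE 0.06), −0.50 (SE 0.06) and 0.46 (SE 0.11).

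**Figure D4:**
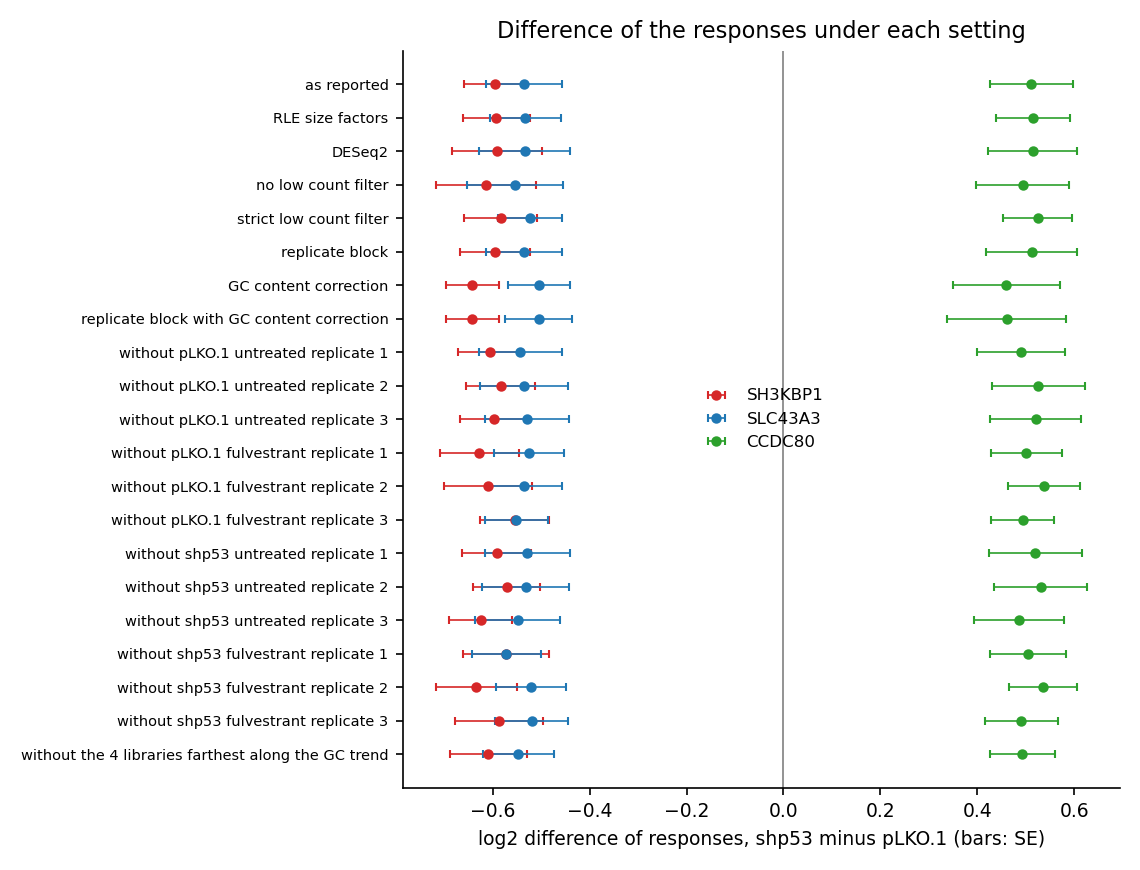
Difference of the fulvestrant responses, shp53 minus pLKO.1 (horizontal axis, log2, whiskers SE), as reported and under 20 other settings (rows) for the 3 genes (colours). SH3KBP1 and SLC43A3 stay at −0.50 or lower and CCDC80 stays at 0.46 or higher in every row.

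Other genes had profiles like those of the 3, measured as the Pearson correlation of log2 CPM over the 12 libraries among 10179 genes. These correlations are descriptions, since the 12 points share 4 group means. Nearest to SH3KBP1 were PARM1 (r = 0.971), a mucin-like membrane protein gene, PET117 (0.959), NOMO1 (0.948) and the heparan sulfatase gene SULF2 (0.947). SULF2 had means of 8.78 and 5.07 CPM in untreated and treated pLKO.1 cells and of 20.0 and 6.39 CPM in shp53 cells. NOMO1 has near-identical copies, so its counts are uncertain.

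SLC43A3 followed a common profile and CCDC80 a rare one. For SLC43A3 1109 genes had r above 0.9, led by NOP14 (0.996), a ribosome biogenesis gene, LARP1 (0.995), WBP11 (0.995) and LRRC59 (0.994). SH3KBP1 had 57 such genes. CCDC80 had 1, TBC1D2B (r = 0.919), followed by MAMDC2 (0.898), C9orf72 (0.835) and the ascorbate carrier gene SLC23A2 (0.79). MAMDC2, like CCDC80, was highest in untreated pLKO.1 cells (10.9 CPM) and lowest in untreated shp53 cells (8.52 CPM), with 8.71 and 9.34 CPM in the treated groups.

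Genes that work with CIN85 were measured from a list of 24 (adaptors, CBL ligases, endophilins, receptors and endocytic proteins), all of them tested. With fulvestrant, averaged over both lines, 9 rose, 4 fell (3 of 23 without SH3KBP1) and 11 did not pass, beside 25% higher and 24.1% lower among all tested genes. The median was 0.05 against −0.01 over all tested genes, and the number that rose was 5 with no filter on low counts. EGFR, the gene of a receptor that CIN85 helps to internalise, rose by 0.70 (SE 0.03, edgeR adjusted p = 5.42e-08) and had means of 772 and 1173 CPM in untreated and treated pLKO.1 cells and 728 and 1272 CPM in shp53 cells. PIK3R1, which encodes a regulatory subunit of PI3 kinase, rose by 0.92 and the ubiquitin ligase gene CBLB by 0.73 (adjusted p-values 1.13e-06 and 7.6e-07). Besides SH3KBP1 the genes that fell were SH3GL3 (−0.66), SPRY2 (−0.15) and GRB2 (−0.12), named after their values were seen. SH3KBP1 fell while CBLB and EGFR rose, but these 2 do not stand for the list. Among the 11 that did not pass were the ligase genes CBL (−0.03) and CBLC (−0.36) and the receptor gene ERBB2 (0.14). Their edgeR adjusted p-values were 0.656, 0.408 and 0.524.

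CD2AP, the closest relative of SH3KBP1 and also an adaptor, rose by 0.16 (edgeR adjusted p = 0.0495), a call that held in 5 of 20 other settings. With knockdown, averaged over both treatments, 4 of the 24 rose (3 of 23 without SH3KBP1) and 0 fell by edgeR or DESeq2. Among all tested genes 5.03% were higher and 3.14% lower. The 4 that rose were SH3KBP1, PIK3R1 (0.33), CBLB (0.30) and the early endosome GTPase gene RAB5A (0.19). The 3 last had edgeR adjusted p-values of 0.0107, 0.00412 and 0.0197, and their calls held in 17, 20 and 10 of 20 other settings. The number that rose was 2 without treated pLKO.1 replicate 2, treated shp53 replicate 1 or treated shp53 replicate 2. After the GC correction 7 rose and 4 fell, and with the 4 GC-shifted libraries left out 6 rose and 2 fell. The count over all tested genes was also larger under both settings, as given below, so the shares above do not apply there. For the difference of the responses SH3KBP1, picked for it, was the 1 gene of the 24 past the threshold. CBLB had a value of 0.47 (SE 0.10, edgeR adjusted p = 0.175), opposite in sign to SH3KBP1.

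Of the list of SLC43 genes, nucleobase and nucleoside carriers and purine salvage enzymes, 17 of 20 were tested. With fulvestrant 8 fell (7 of 16 without SLC43A3), 3 rose and 6 did not pass, beside 24.1% lower and 25% higher among all tested genes. The median was −0.37 against −0.01 over all genes, and −0.20 after the GC correction. After SLC43A3 the smallest p-values were those of PNP, purine nucleoside phosphorylase (−0.82, SE 0.06, edgeR adjusted p = 1.2e-06), and of SLC29A1, an equilibrative nucleoside carrier (−0.73, SE 0.08, adjusted p = 2.1e-05). PNP had means of 109 and 69.0 CPM in untreated and treated pLKO.1 cells, and 102 and 51.5 CPM in shp53 cells. The 3 that rose were XDH, which oxidises purines to uric acid (0.61), and the concentrative nucleoside carriers SLC28A1 (0.47) and SLC28A3 (0.88), the last at 2.25 CPM or less in each group mean. The 5 others that fell were the equilibrative carriers SLC29A2 (−0.56) and SLC29A3 (−0.37) and the purine enzymes HPRT1 (−0.37), ADK (−0.21) and ADA (−0.37), named after their values were seen. The calls of SLC29A2, SLC29A3 and ADA held in 17, 19 and 18 of 20 other settings, and ADA had −0.19 after the GC correction (edgeR adjusted p = 0.125). The amino acid carriers SLC43A1 (0.07) and SLC43A2 (−0.21), the relatives of SLC43A3, did not pass (adjusted p-values 0.651 and 0.49).

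With knockdown 5 of the 17 fell (4 of 16 without SLC43A3) and 1 rose, beside 3.14% lower and 5.03% higher among all tested genes. SLC43A3, PNP (−0.26), SLC29A1 (−0.32), ADA (−0.34) and the ascorbate carrier gene SLC23A2 (−0.14) fell, with edgeR adjusted p-values between 0.0176 and 0.0302. The calls of PNP, SLC29A1, ADA and SLC23A2 held in 15, 14, 17 and 12 of 20 other settings. SLC29A3, which encodes a carrier of intracellular membranes, rose by 0.54 (edgeR adjusted p = 0.00248). SLC29A1 and SLC23A2 are named to complete that count, after their values were seen. The number that fell was 2 or 3 without untreated pLKO.1 replicate 2, treated pLKO.1 replicate 2, any untreated shp53 library, or treated shp53 replicate 1 or 3. ADA lost its knockdown call after the GC correction (edgeR adjusted p = 0.108). For the difference of the responses 4 of all 15715 tested genes passed by edgeR, 45 by DESeq2 and 604 after the GC correction. Of the 17 in this list 0, 1 and 2 passed, in that order. The median was −0.25 against −0.01 over all genes, and the 1031 genes given above that fell with fulvestrant also had −0.25. SLC43A3 had the only unadjusted edgeR p under 0.01, the value it was picked for, so this is no finding.

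The third list held CCDC80, its relatives SRPX and SRPX2 and other secreted matrix genes, 24 in all, each of them tested. With fulvestrant 6 rose, 7 fell and 11 did not pass, beside 25% higher and 24.1% lower among all tested genes, and with a median of −0.01, like that of all genes. FN1, the fibronectin gene, rose by 1.37 (SE 0.04, edgeR adjusted p = 3.19e-09) and had means of 2706 and 6242 CPM in untreated and treated pLKO.1 cells and 3121 and 9014 CPM in shp53 cells. TGFBI, which encodes an integrin-binding matrix protein, rose by 0.94 (adjusted p = 1.89e-08). THBS1 fell by 0.51 and LTBP1, which encodes a carrier of latent TGF-beta, by 0.39 (adjusted p-values 2.92e-07 and 6.62e-05). These shares are near those of all genes, and CCDC80 was among those that did not pass. The number that fell was 4 without untreated pLKO.1 replicate 2 or untreated shp53 replicate 2. SRPX (0.03) and SRPX2 (0.08), the relatives of CCDC80, did not pass either (adjusted p-values 0.562 and 0.142).

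With knockdown 6 of the 24 rose and CCDC80 alone fell, beside 5.03% higher and 3.14% lower among all tested genes. Without CCDC80, which was picked from these data, 6 of 23 rose and 0 fell. EFEMP1, which encodes a fibulin, rose by 0.39 (edgeR adjusted p = 5.67e-05). LTBP1 rose by 0.51, FN1 by 0.37 and SPARC, the osteonectin gene, by 0.32 (edgeR adjusted p between 0.000121 and 0.00142). With the 4 GC-shifted libraries left out 5 rose and 5 fell, but the count over all tested genes was also larger then, as given below. For the difference of the responses 0 of 24 passed by edgeR, where 4 of all 15715 tested genes did. DESeq2 called 3 of the 24 (45 of all genes) and the GC correction 5 of the 24 (604 of all genes). The smallest p-values after TGFBI (0.46, SE 0.07, edgeR adjusted p = 0.0932) were those of THBS1 and of CCDC80, which was picked for it. FN1 had a difference of 0.32 (SE 0.07, adjusted p = 0.21).

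**Figure D5:**
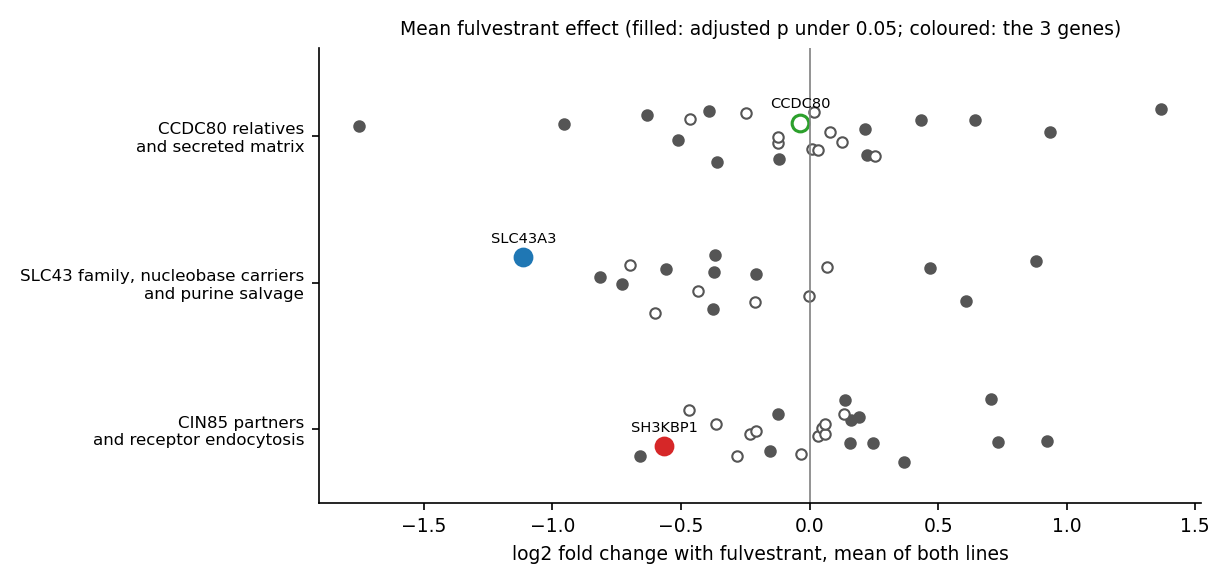
Fulvestrant effect averaged over both lines (horizontal axis, log2) for the tested genes of the 3 lists (rows, vertical scatter for legibility only). Filled points passed an adjusted p of 0.05 and open points did not, and the 3 genes are coloured. SLC43A3 (−1.11) is the lowest of its list, SH3KBP1 (−0.56) lies among the lowest of its list, and CCDC80 (−0.04) lies near 0.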

How the data were processed

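For each gene the authors deposited an estimated count from RSEM, not normalized and already whole, per the file headers and the values themselves. RSEM 1.3.3, Bowtie2, cutadapt and MultiQC and the build GRCh37/hg19 are named in the submitters' processing notes. Annotation, settings and strand option: not given in the sources used here. RNA input was 500 ng, with 9 PCR cycles, per the labels' protocols. Another 6 columns in the table fitted none of the samples' labels and stayed out. No coordinates are printed, because the reference genome used is of a different build.

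Tests used edgeR 4.0.16 under R 4.3.3 (robust quasi-likelihood, TMM factors 0.98 to 1.06, filterByExpr, 15715 genes, 1 mean per group over all 12 libraries). The Benjamini-Hochberg adjustment covered every tested gene within each contrast, and 0.05 was the threshold. SEs are approximate, the absolute log2 fold change over the square root of F. DESeq2 1.42.0 was an alternative. The fit was checked on simulated data. Replicates differed by more than counting noise (chi-square per degree of freedom 2.48 to 95.4).

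The genes and lists were chosen with earlier results of these data known. Named are the 3 genes, their neighbours in the order of p, the 4 likest profiles of each and, per list and averaged contrast, up to 4 genes of smallest p past the threshold. Any further genes named were chosen after their values were seen. GC content came from reference transcripts matched by identifier (97.8% of tested genes). The level of the targeted gene is not reported here.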

Additional observations from a re-analysis of the deposited data

Results flagged for a closer look

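SH3KBP1 had fulvestrant responses that differed between the lines by the test of the interaction itself. The difference was −0.60 on the log2 scale (−0.596, edgeR adjusted p = 0.0265), lower after treatment in both lines and more so in shp53 cells. It was picked for this value, so the test is a description. The adjusted p was under 0.05 in 8 of 20 other settings and in 2 of the 12 that leave out 1 library, where it ranged from 0.0357 to 0.266.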

How the results depend on the processing

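Alternatives were other size factors, DESeq2, no or a stricter low count filter, the replicate number as a block, a GC content correction, both together, leaving out each library, and, chosen after seeing the data, leaving out the 4 libraries farthest along the GC trend. All directions of the 3 genes held except that of CCDC80 between treated lines, which lay between −0.022 and 0.073. The mean fulvestrant and mean knockdown calls of the 3 genes held in every setting but the 2 already given for SLC43A3 (−0.18 in both). Of the matrix genes, SPARC changed sign with fulvestrant after the GC correction (0.009).

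Where values moved by more than the spread between replicates, the cause was not tested. The count for the difference of responses (4) was 45 with DESeq2, 0 without the low count filter (1157 at an unadjusted p under 0.05), 604 with GC correction, 62 without the 4 libraries and 0 to 7 without 1 library. The mean knockdown count (1283) was 3436 with GC correction (1684 higher, 1752 lower, against 790 and 493), 3185 without the 4 libraries and 698 to 2119 without 1 library. It moved by over 1.5 times without untreated pLKO.1 replicate 2 (825), treated pLKO.1 replicate 2 (698) or 3 (2119), untreated shp53 replicate 2 (846), and treated shp53 replicate 1 (751) or 3 (844).

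With GC correction SH3KBP1 had a difference of −0.642, a response in shp53 cells of −0.929 and a knockdown effect with fulvestrant of −0.123. SLC43A3 had responses of −0.764 in pLKO.1 and −1.268 in shp53 cells, and CCDC80 a response of 0.139 in shp53 cells and a knockdown effect with fulvestrant of −0.022. The SH3KBP1 response in shp53 cells was −0.821 with the stricter filter, and −0.304 in pLKO.1 and −0.913 in shp53 cells without the 4 libraries. Without 1 library, SH3KBP1 ranged from −0.634 to −0.555 for the difference, −0.309 to −0.237 in pLKO.1 cells, −0.900 to −0.839 in shp53 cells and −0.098 to −0.020 for knockdown with fulvestrant, and SLC43A3 from −0.200 to −0.172 for the mean knockdown effect.

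The labels number replicates alike in all groups, but deviations from the group means did not go together by number across all 4 groups. The libraries also varied along the GC trend, so these deviations cannot tell whether same-numbered libraries were paired. Same-numbered libraries had correlated deviations in 8 of 18 pairs (r over 0.1, range −0.934 to 0.871). All 3 pairs of the 2 untreated groups did (0.871, 0.184 and 0.807), and no other 2 groups had all 3, and 1 of 12 libraries was closest to one of its own number. The replicate block gave 0 genes for the difference (914 at an unadjusted p under 0.05) and 786 for the mean knockdown effect, where 2 genes of the SLC43 list fell, not 5. With fulvestrant 4 matrix genes fell, not 7. With the GC correction as well, it gave 357 and 2896, and the values just given with GC correction for the 3 genes were the same, except −0.763 for SLC43A3 in pLKO.1 cells. The 3 genes had 847 to 6125 counts per library and within-group SDs of 0.0343 (SH3KBP1), 0.06 (SLC43A3) and 0.0709 (CCDC80) on the log2 scale.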
